A study of Homo sapiens with 91 samples.

Results

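The 38 single cells of a human HEK293T clone (labelled clone1), profiled with MATQ-seq, were ranked by the total of exonic barcodes in their libraries, so the members were chosen by that measured total: the 12 cells with the highest totals, called large cells here, were set against the 12 cells with the lowest totals, called small cells. These 24 cells and the 14 cells between them are 48 libraries together with 10 averaged aliquots of the same clone, out of 91 samples in the series; the other 43 samples are not analysed here. HEK293T is a line of human embryonic kidney cells that carries adenoviral genes and the SV40 large T antigen. All 48 libraries come from 1 clone, the labels give the same growth medium for all of them and name no treatment, and no label tells large from small cells. Nothing in the labels says whether the cells came from separate cultures, so p-values measure the spread between these cells. An aliquot is material of pooled cells split into single-cell amounts, so aliquots differ in handling and capture but not in the cell they came from. MATQ-seq amplifies total RNA with primers that anneal along the transcript and not only at the poly(A) tail, and it marks cDNA molecules with random barcodes before amplification. RNAs without a poly(A) tail are therefore counted beside mRNAs.

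The exonic barcode total is the value that chose the cells and is given as a description with no test. Large cells held 248733 to 326476 exonic barcodes (median 301383), and small cells held 128322 to 198229 (median 183421). The lowest large cell, cell 23, had 248733 barcodes and the next cell below it, cell 31, had 242906. The highest small cell, cell 6, had 198229 barcodes and the next cell above it, cell 9, had 201101. Mean totals differed 1.65-fold between large and small cells, and the highest cell total was 2.54 times the lowest. The totals do not show by themselves that the cells held different amounts of RNA: the coefficient of variation was 22.4% over the 38 cells and 22.1% over the 10 aliquots, which ranged from 152542 to 275215 exonic barcodes. The amount of RNA in a cell and the efficiency of its capture cannot be told apart in these counts, so "large" and "small" refer to the barcode total and not to cell size.

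Several RNAs that were lower in large cells as a share of exonic barcodes belong to the structural noncoding RNAs. Most of these RNAs work as RNA, without being translated, in machines that every cell needs, and many are short, end without a long poly(A) tail and are made by RNA polymerase III. 7SK RNA holds the elongation factor P-TEFb in an inactive complex, RMRP RNA is the RNA of RNase MRP and takes part in rRNA processing, RNY1 is a Y RNA bound by the Ro60 protein, SNORA71A is an H/ACA snoRNA that guides pseudouridylation and lies within its host gene SNHG17, and MT-RNR1 and MT-RNR2 are the 12S and 16S rRNAs of the mitochondrial ribosome. The sequences of 3 of them, as DNA letters of the GENCODE 29 transcripts (build GRCh38, read 5′ to 3′ in the sense of the RNA), are given to show how short the RNAs at the centre of the comparison are. Capitals mark the run of T at the 3′ end, the signal at which RNA polymerase III stops, where the annotated transcript ends in one.
RNY1 (chromosome 7, 113 bases): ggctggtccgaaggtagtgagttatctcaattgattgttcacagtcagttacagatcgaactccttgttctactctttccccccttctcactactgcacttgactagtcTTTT
SNORA71A (chromosome 20, 134 bases): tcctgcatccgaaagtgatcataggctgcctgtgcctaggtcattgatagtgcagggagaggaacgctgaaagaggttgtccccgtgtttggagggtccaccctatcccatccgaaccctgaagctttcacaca
RMRP (chromosome 9, 268 bases): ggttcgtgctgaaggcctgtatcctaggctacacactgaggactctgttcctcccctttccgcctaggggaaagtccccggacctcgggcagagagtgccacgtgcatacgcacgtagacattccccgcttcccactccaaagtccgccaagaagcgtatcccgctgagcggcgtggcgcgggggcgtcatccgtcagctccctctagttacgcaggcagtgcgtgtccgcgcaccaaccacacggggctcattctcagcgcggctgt
Of the 3, RNY1 alone ends in such a run as annotated. 7SK RNA is 331 bases long in the same annotation.

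**Figure D1:**
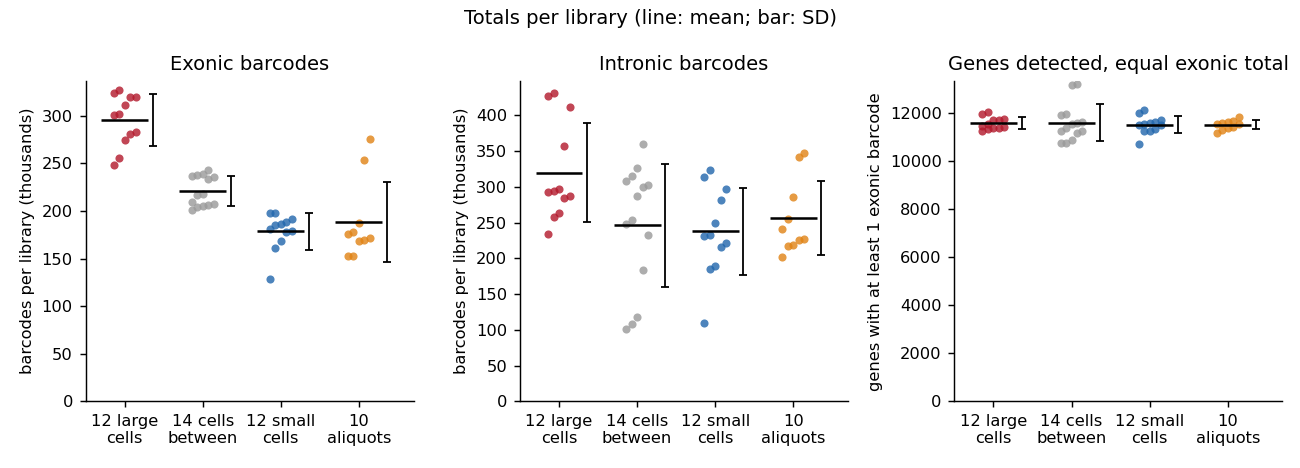
Exonic barcodes, intronic barcodes (both per library) and genes detected after thinning to 128322 exonic barcodes, for the 12 large cells, the 14 cells between, the 12 small cells and the 10 aliquots; each point is a library, the line is the mean and the bar the SD. The exonic panel shows the ranking itself, the intronic panel shows overlapping sets with a higher mean in large cells, and at equal exonic totals the means were 11594 genes in large cells and 11534 in small cells.

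Measures that did not enter the ranking were tested by permutation of the 24 cells (two-sided, 100000 resamples, Benjamini-Hochberg adjustment over 5 measures). Intronic barcodes, which mostly count unspliced RNA, averaged 319911 ± 69097 in large cells and 237580 ± 60952 in small cells (SD, n = 12 each), a difference of 82331 with p = 0.00424 and adjusted p = 0.0212 in the permutation test. The sets overlapped, with 234081 to 431469 intronic barcodes in large cells and 110285 to 323350 in small cells. With the 10 highest and 10 lowest cells the difference was 69038 and the adjusted permutation p was 0.0986, and with cells ranked by exonic reads it was 83868 with an adjusted permutation p of 0.102. Over all cells the exonic and intronic totals had a Spearman coefficient of 0.39 (n = 38) and over aliquots one of 0.81 (n = 10); both totals of a library share its capture and depth. Intronic barcodes were 51.5% ± 6.17 of all barcodes in large cells, 56.3% ± 7.55 in small cells and 57.6% ± 1.66 in aliquots; this share holds the ranked total in its divisor and was not tested.

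At equal exonic barcode totals the difference in genes detected did not pass the test. After thinning every library to 128322 exonic barcodes, 11594 ± 254 genes were detected in large cells and 11534 ± 370 in small cells, a difference of 60.2 genes (adjusted permutation p = 0.816). Without thinning the mean numbers were 13522 in large cells and 12313 in small cells. Reads per intronic barcode, a measure of how deeply a library was sequenced, averaged 2.38 ± 0.246 in large cells and 2.70 ± 0.372 in small cells (adjusted permutation p = 0.0558). Reads per exonic barcode were 3.30 ± 0.539 and 3.34 ± 0.488 in large and in small cells.

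The label numbers of the cells differed between the sets, short of the adjusted threshold. Large cells had a mean number of 21 ± 10.7 and small cells one of 12.7 ± 7.96 (adjusted permutation p = 0.0756), with 5 of the large and 10 of the small cells numbered 1 to 19 and 7 of the large and 2 of the small cells numbered 20 to 38. What the numbers stand for is not stated in the labels. Where the number as a covariate ended the call of a gene described with its values, this is said with the results.

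Of the marker lists for cell lines and cell types, that of HEK293T held the most barcodes. The 8 HEK293T marker genes in the files summed to 244 to 569 exonic barcodes in large cells and 152 to 411 in small cells. IRS4, the insulin receptor substrate gene, led with 3522 barcodes over the 12 large and 2149 over the 12 small cells. EPCAM (6 and 3) and KRT8 (22 and 11) were the lowest, below CAV1 (30 and 20) of the MCF10A list. Identity was not tested. The 13 markers of MCF10A, a mammary epithelial line that the series also holds, summed to 1 to 16 barcodes in large cells and 0 to 10 in small cells, with KRT17, KRT6A, KRT6B and SERPINB5 at 0 in all 24 cells. The 8 blood and immune markers summed to 0 to 2 barcodes in large cells and 0 to 3 in small cells, and the 7 fibroblast markers to 1 to 16 in large cells and 1 to 10 in small cells.

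Per gene, exonic barcodes were compared between the sets with edgeR's quasi-likelihood test over 9979 genes that averaged 10 or more CPM (barcodes of the gene per 1000000 exonic barcodes of the library) in the 38 cells, with Benjamini-Hochberg adjustment over all of them. At adjusted p below 0.05, 2 genes were higher in large cells (0.02% of the genes tested) and 28 were lower (0.281%). At unadjusted p below 0.05 the numbers were 436 higher (4.37%) and 482 lower (4.83%). The ranked total is the divisor of every CPM value, so a gene whose barcode count did not change with the total would have a log2 fold change of about -0.726 between the sets. After thinning to equal totals, 2 genes were higher (0.02%) and 21 were lower (0.21%), and 21 genes passed in both fits. Leaving out small cell 15, the cell with the lowest total, reduced the 30 calls to 13, and leaving out other single cells gave 20 to 44. The number of calls was 12 with the cell number as a covariate, 14 among cells numbered 1 to 19 (5 large against 10 small cells) and 3 among cells numbered 20 to 38 (7 against 2).

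**Figure D2:**
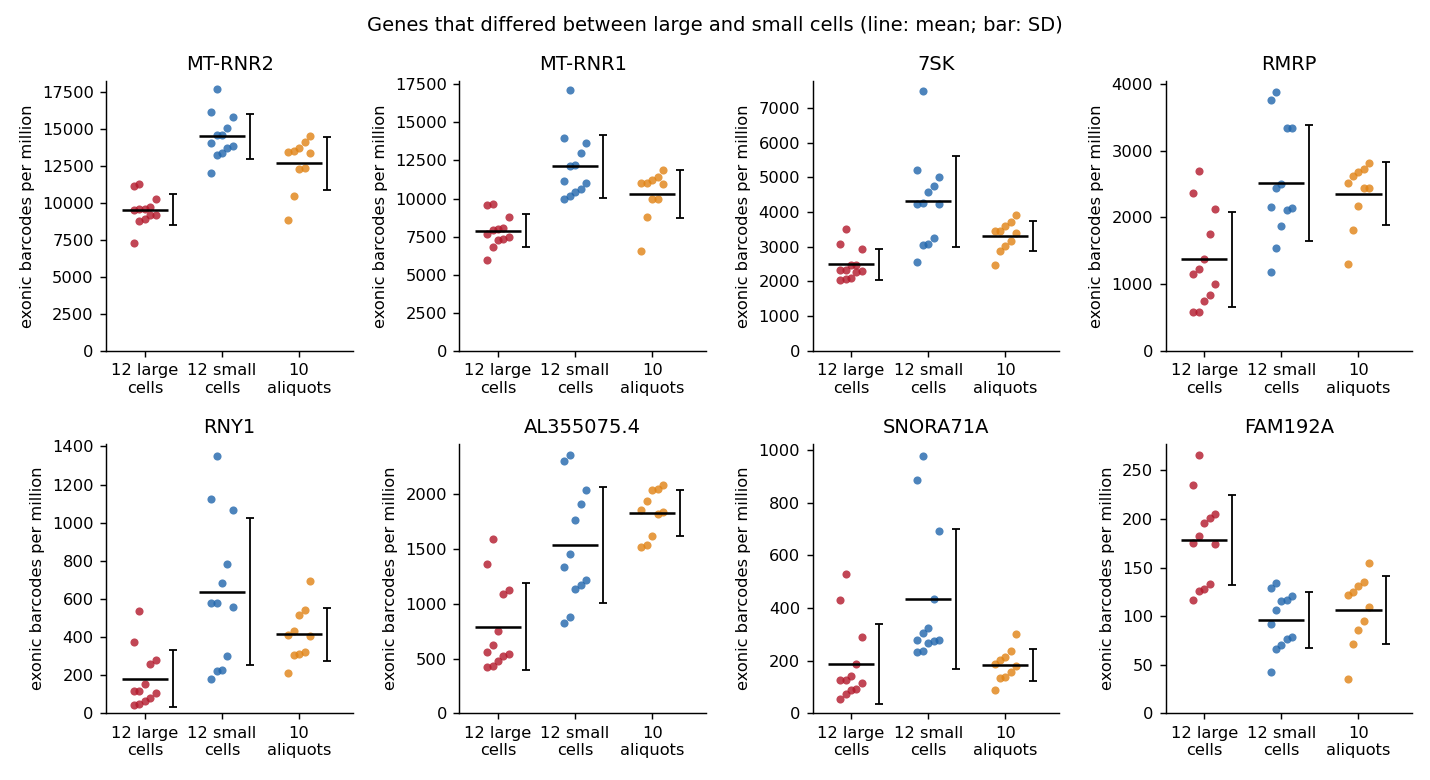
Exonic CPM of 8 genes past the threshold in the 12 large cells, the 12 small cells and the 10 aliquots; each point is a library, the line is the mean and the bar the SD. MT-RNR2 and MT-RNR1 of large cells lie below those of all small cells, the other structural RNAs overlap, and FAM192A is higher in large cells.

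In CPM, which has the ranked total as its divisor, the mitochondrial rRNAs separated the sets completely. MT-RNR2 stood at 7314 to 11281 CPM in large cells (median 9552) and at 12049 to 17721 CPM in small cells (median 14292), and the cells between averaged 11526 ± 1574 CPM (SD, n = 14). All 12 large cells lay below all 12 small cells. The log2 fold change of large over small cells was -0.67 (SE 0.0879, adjusted p = 6.81e-06). MT-RNR1 stood at 5988 to 9667 CPM in large cells (median 7803) and at 9936 to 17160 CPM in small cells (median 11635), again without overlap, and its log2 fold change was -0.68 (SE 0.099, adjusted p = 3.08e-05). In barcodes per cell the sets were much closer: MT-RNR2 had 2802 ± 282 barcodes in large cells and 2571 ± 209 in small cells, and MT-RNR1 had 2317 ± 282 and 2133 ± 195 in large and in small cells. The number of mitochondrial rRNA barcodes was thus 1.09 times as high in large as in small cells, where all exonic barcodes together were 1.65 times as high. Both log2 fold changes were near -0.726, the value of a count that does not change between the sets. The totals of the sets do not overlap, so a nearly constant count can separate them in CPM. Both genes passed the threshold in each of the 24 fits that left out a cell, and in cells numbered 1 to 19 alone their log2 fold changes were -0.66 and -0.70. In cells numbered 20 to 38 they were -0.59 and -0.52 and did not pass, with 2 small cells there. Neither call held on exonic reads in place of barcodes (MT-RNR2 -0.26, adjusted p = 0.797; MT-RNR1 -0.49, adjusted p = 0.554) or with cells ranked by exonic reads (-0.34 for both, adjusted p = 0.504 and 0.586).

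The 13 mitochondrially encoded mRNAs, which code for subunits of the respiratory chain and ATP synthase, all had negative fold changes, with a median log2 fold change of -0.36 against 0.00 over all genes tested. MT-ND4L, a complex I subunit that overlaps MT-ND4 on the same strand, was the only member past the threshold: it stood at 401 to 1033 CPM in large cells (median 601) and at 602 to 1158 CPM in small cells (median 879), with a log2 fold change of -0.56 (SE 0.132, adjusted p = 0.039). The sets overlapped, and the call was kept in 6 of the 24 fits that left out a cell. It was lost after thinning (adjusted p = 0.0752) and with the cell number as a covariate (adjusted p = 0.317). MT-ND5 averaged 2045 ± 534 CPM in large cells and 2860 ± 692 CPM in small cells (adjusted p = 0.0566). It passed after thinning (adjusted p = 0.0436), in limma (0.0361), in DESeq2 (0.0151) and over all 38 cells with the continuous total (0.023). MT-ND5 did not pass with the cell number as a covariate (adjusted p = 0.439), with 10 against 10 cells (0.165), with plain library totals (0.13) or on exonic reads (0.66). With cells ranked by exonic reads its log2 fold change was -0.04. At unadjusted p below 0.05, 11 of the 13 mRNAs were lower and 0 higher. With cells ranked by intronic barcodes instead, the median of the 13 was -0.02, and with cells ranked by exonic reads it was 0.08. The 44 nuclear-encoded respiratory chain genes tested had a median of -0.01 and 0 calls.

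7SK RNA was lower in large cells by the same measure. It stood at 2026 to 3507 CPM in large cells (median 2338) and at 2553 to 7505 CPM in small cells (median 4238), and 9 of the large cells lay below all small cells. The log2 fold change was -0.85 (SE 0.132, adjusted p = 0.000106), and in counts the gene had 730 ± 105 barcodes in large cells and 750 ± 151 in small cells. The genome holds many copies of 7SK (RN7SKP genes), between which the authors' counting could split reads, so single copies are uncertain. Of the 289 copies in the files 11 passed the filter on low values, all 11 had negative fold changes with a median of -1.40, and 6 passed the threshold, as against 0.281% of all genes. The number that passed was 4 after thinning and 2 with the cell number as a covariate, and leaving out small cell 15 alone ended the calls of RN7SKP36, RN7SKP176, RN7SKP255 and RN7SKP74. The RN7SKP74 call was lost in 12 of the 24 fits that left out a cell. Summed over all 289 copies, large cells had 151 ± 61.8 barcodes and small cells 217 ± 107.

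Among the structural RNAs that passed the threshold, RNY1 had the most negative fold change. It stood at 46.3 to 538 CPM in large cells (median 118) and at 178 to 1348 CPM in small cells (median 579). The sets overlapped, with 8 large cells below all small cells and 8 small cells above all large cells. The log2 fold change was -1.87 (SE 0.32, adjusted p = 0.000745). Here the count itself was lower: 52.3 ± 42.6 barcodes in large cells and 111 ± 60.3 in small cells. Aliquots averaged 415 ± 139.9 CPM, between the means of the sets.

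RMRP and a transcript that overlaps the RNA of RNase P were also lower in large cells. RMRP stood at 583 to 2701 CPM in large cells (median 1185) and at 1181 to 3879 CPM in small cells (median 2301), with a log2 fold change of -0.94 (SE 0.205, adjusted p = 0.0194). AL355075.4 is a long noncoding RNA annotated on the same strand as RPPH1, the RNA of the tRNA-processing enzyme RNase P, so its barcodes and those of RPPH1 cannot be told apart, and PARP2 overlaps it on the other strand. It stood at 426 to 1588 CPM in large cells (median 592) and at 822 to 2358 CPM in small cells (median 1393), with a log2 fold change of -1.01 (SE 0.199, adjusted p = 0.00624). SNORA71A stood at 56.3 to 532 CPM in large cells (median 127) and at 234 to 978 CPM in small cells (median 293), with a log2 fold change of -1.25 (SE 0.287, adjusted p = 0.0308). For each of these 3 RNAs the sets overlapped. Aliquots averaged 2350 ± 472 CPM of RMRP, 1826 ± 209.7 CPM of AL355075.4 and 185 ± 60.03 CPM of SNORA71A (SD, n = 10), so that those of SNORA71A lay near the large cells and those of AL355075.4 above the mean of the small cells. The RMRP call was lost without small cells 15, 1, 5 or 3 or large cell 23, and the SNORA71A call was lost in 12 of the 24 fits that left out a cell. With the cell number as a covariate the adjusted p was 0.375 for RMRP, 0.472 for SNORA71A and 0.064 for AL355075.4, while MT-RNR2 (0.000136), MT-RNR1 (0.000923), 7SK (0.0047) and RNY1 (0.0277) passed.

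The spliceosomal RNAs had negative fold changes and no calls. Of 19 annotated snRNA genes and copies that passed the filter on low values, all 19 had negative fold changes (median -1.28) and 15 had an unadjusted p below 0.05, as against 4.83% of all genes, but 0 passed the adjusted threshold and 1 copy of U5 passed after thinning. RNU4-1, a gene of the U4 RNA that pairs with U6 in the tri-snRNP, averaged 265 ± 200 CPM in large cells and 628 ± 420 CPM in small cells, with a log2 fold change of -1.30 (adjusted p = 0.177), and it passed over all 38 cells with the continuous total (slope -1.96, adjusted p = 0.00986). Reads of U4 and U5 genes can be shared with their many copies. Of 13 snoRNAs tested, 11 had negative fold changes (median -0.69), and SNORA71A was the only call.

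Sorted by annotated transcript length, the 2 shortest classes had the most negative medians. The 53 genes whose longest transcript is under 200 bases had a median log2 fold change of -0.62, with 46 negative values, 2 genes called lower and 0 called higher. The 73 genes of 200 to under 500 bases had a median of -0.31 with 9 called lower. Over all genes tested 0.281% were called lower. The class of 200 to under 500 bases holds 7SK (331 bases), RMRP (268 bases) and copies of 7SK, between which reads could be split. Its 9 calls therefore need not be 9 separate RNAs. The medians of longer classes lay between -0.03 and 0.05. Genes called lower were also found there, with 3 of 704 genes of 500 to under 1500 bases, 5 of 2531 up to 3000, 1 of 3208 up to 5000 and 3 of 3266 above, and the 2 genes called higher were in these classes too. Protein-coding genes were 0 of the 53 and 13 of the 73, so short length and noncoding type go together here. As a share of exonic barcodes, protein-coding genes made up 91.0% ± 1.26 in large cells and 88.2% ± 1.46 in small cells, and mitochondrial rRNAs made up 1.74% ± 0.212 in large cells and 2.66% ± 0.349 in small cells; these shares hold the ranked total and were not tested. In mean barcodes per cell, the ratio of large to small cells was 1.71 for protein-coding genes, 1.41 for long noncoding RNAs, 1.32 for mitochondrial mRNAs, 1.09 for mitochondrial rRNAs, 0.92 for snoRNAs and scaRNAs, 0.87 for the type that holds 7SK and Y RNAs, and 0.77 for snRNAs.

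**Figure D3:**
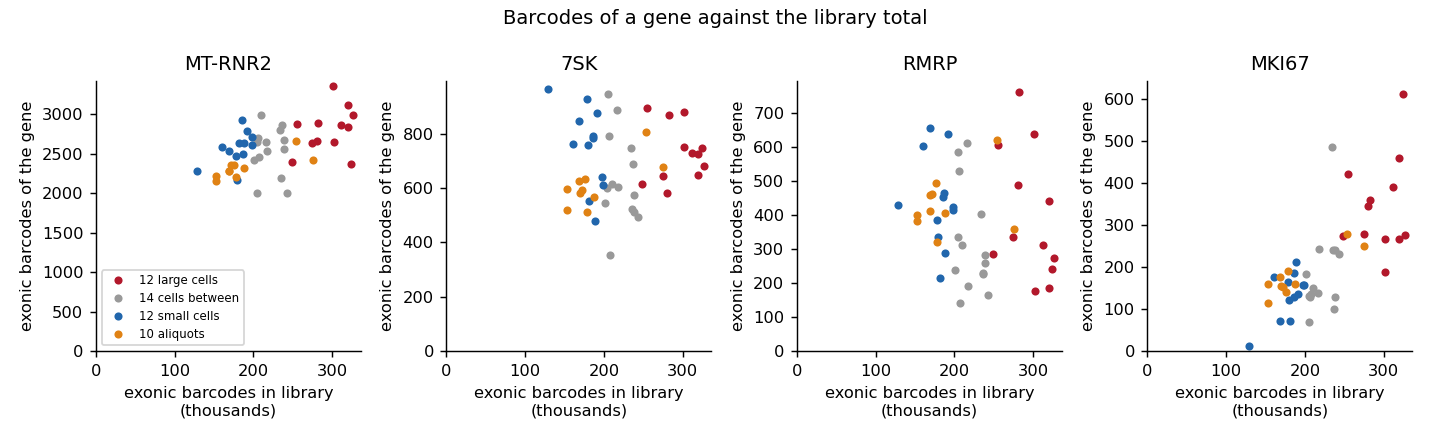
Exonic barcodes of MT-RNR2, 7SK, RMRP and MKI67 in each library against the exonic barcode total of the library, for large cells, cells between, small cells and aliquots. The counts of MT-RNR2 and 7SK averaged 2802 and 730 in large cells and 2571 and 750 in small cells, while MKI67 averaged 346 in large cells and 133 in small cells.

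The same relation could be followed in the aliquots, which took no part in the ranking. A slope was fitted of log2 CPM on log2 of the exonic total, so that a count that does not change with the total has a slope of -1; the total is the divisor of CPM in cells and aliquots alike. MT-RNR2 had a slope of -0.86 over the 38 cells (adjusted p = 5.97e-09) and of -0.78 over the 10 aliquots (adjusted p = 1.45e-10), and MT-RNR1 had slopes of -0.90 (adjusted p = 1.27e-08) and -0.85 (adjusted p = 9.7e-10) over cells and aliquots. The slope of RMRP was -1.41 over cells and -0.74 over aliquots (unadjusted p = 0.000168, adjusted p = 0.153 in aliquots), and that of 7SK was -1.18 over cells and -0.54 over aliquots (unadjusted p = 0.000153, adjusted p = 0.153 in aliquots). RNY1 and SNORA71A had slopes of -2.71 and -1.89 over cells and of -0.04 and 0.29 over aliquots. The aliquot slopes lean on aliquots 2 and 3, with 275215 and 253750 exonic barcodes, where the next highest aliquot held 187843. Aliquot 2 was also the lowest aliquot for MT-RNR2 (8811 CPM) and MT-RNR1 (6544 CPM). No fit left out an aliquot. Within cells 64 of 9990 genes had a slope past adjusted p 0.05 (0.641%), 9 positive and 55 negative, and within aliquots 4 did (0.04%), all negative. The difference between the slopes in cells and in aliquots passed the adjusted threshold for 0 genes in edgeR's test of the interaction, and 471 genes (4.71%) had an unadjusted p below 0.05, among them RNY1 (0.00569), SNORA71A (0.019) and AL355075.4 (0.0337). That test had little power: in simulated counts it found 1 of 100 genes whose slopes differed by 2. The 3 genes with its smallest p among those named by rule were RHOBTB1 (slopes of 1.43 over cells and -6.33 over aliquots), PFDN5 (0.81 over cells and -1.70 over aliquots) and C1orf122 (0.71 over cells and -8.94 over aliquots), and none of the 3 passed. Counts in aliquots were near the floor for RHOBTB1 (median 3 barcodes) and C1orf122 (median 0, with 6 of the 10 aliquots at 0). PFDN5 had a median of 21 barcodes in aliquots.

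**Figure D4:**
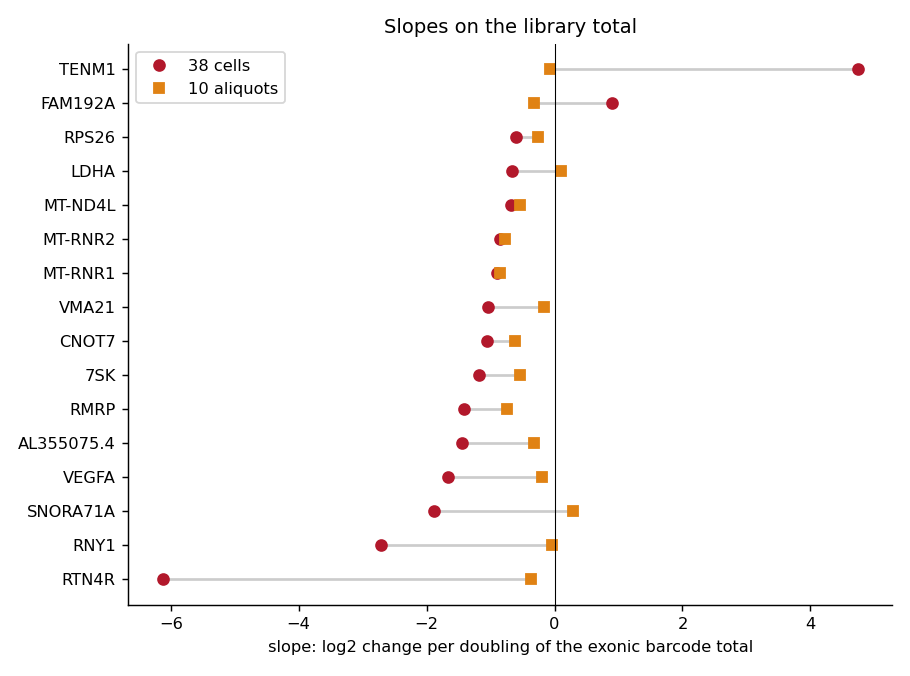
Slope of log2 exonic CPM on log2 of the exonic barcode total, for the 16 named genes past the threshold, in the 38 cells (circles) and in the 10 aliquots (squares). The slopes of MT-RNR2 and MT-RNR1 lie close together in cells and aliquots, while RNY1 (-2.71 in cells and -0.04 in aliquots) and RTN4R (-6.12 in cells and -0.37 in aliquots) lie far apart, without a difference past the adjusted threshold.

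The pattern in mitochondrial rRNAs and in short RNAs depended on which total ranked the cells. With the 12 highest and 12 lowest cells by intronic barcodes, a ranking that shared 4 of the large and 7 of the small cells with the one above, the fold changes were -0.21 for MT-RNR2, -0.15 for MT-RNR1 and -0.01 for 7SK, and they turned positive for RNY1 (0.20), AL355075.4 (0.14), RMRP (0.41) and SNORA71A (0.82). The median of the genes under 200 bases was then 0.51 and that of the snRNAs 0.62. With cells ranked by exonic reads, which shared 9 large and 7 small cells, the 30 genes kept their direction and 2 of them passed. In cells numbered 20 to 38 the fold changes were -0.28 for 7SK and -1.47 for RNY1, neither of which passed there.

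Protein-coding genes were called in small numbers, in both directions. FAM192A, which codes for a partner of the proteasome activator PA28 gamma, stood at 117 to 266 CPM in large cells (median 179) and at 42.6 to 134 CPM in small cells (median 98.7). The sets overlapped in part, and the log2 fold change was 0.84 (SE 0.185, adjusted p = 0.0214), with 52.8 ± 14.6 barcodes per large cell and 17 ± 5.34 per small cell. The call was lost without large cell 13 or large cell 30, and over all 38 cells with the continuous total (adjusted p = 0.0725). It was also lost with 10 against 10 cells (adjusted p = 0.0674) and with 8 against 8 (adjusted p = 0.335). With cells ranked by intronic barcodes the log2 fold change of FAM192A was 0.0085. The other gene called higher, TENM1, a teneurin of the cell surface, rested on 3 cells: large cells 11, 30 and 37 held 133, 67 and 27 barcodes, the median was 1.5 barcodes in large cells and 0 in small cells, and the call was lost in 12 of the 24 fits that left out a cell.

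RTN4R, the Nogo receptor gene, had the most negative fold change and varied widely among cells. It stood at 0 to 25.5 CPM in large cells (median 5.04) and at 5.04 to 1128 CPM in small cells (median 43.1), with a log2 fold change of -5.07 (SE 0.722, adjusted p = 2.19e-05). Small cells 22 and 15 held 223 and 132 barcodes against a median of 8 in small cells. Single high values were also seen in aliquots, of which aliquot 10 had 140 barcodes where the median aliquot had 1.5. The call was kept in each of the 24 fits that left out a cell but not in limma on log2 CPM (adjusted p = 0.219).

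Among the other genes called lower, RPS26, a protein of the small ribosomal subunit, averaged 199 ± 33.9 CPM in large cells and 296 ± 53.8 CPM in small cells (log2 fold change -0.63, adjusted p = 0.0232). LDHA, the lactate dehydrogenase of glycolysis, averaged 452 ± 62.0 CPM in large cells and 647 ± 167 CPM in small cells (-0.57, adjusted p = 0.0308). VMA21, an assembly factor of the vacuolar proton pump, stood at a median of 75.6 CPM in large cells and 139 CPM in small cells (-0.96, adjusted p = 0.0124). CNOT7, a deadenylase of the CCR4-NOT complex, stood at a median of 76.4 CPM in large cells and 137 CPM in small cells (-0.89, adjusted p = 0.0275), and VEGFA, the vascular growth factor, averaged 45.4 ± 17.7 CPM in large cells and 101 ± 71.2 CPM in small cells (-1.20, adjusted p = 0.0465). In barcodes per cell the ratio of large to small cells was 1.11 for RPS26, 1.17 for LDHA, 0.88 for VMA21, 0.94 for CNOT7 and 0.75 for VEGFA. After thinning, CNOT7 passed and the other 4 did not. The calls of RPS26 (4 of 24 fits), LDHA (9), CNOT7 (8) and VEGFA (17) were lost when single cells were left out. RPS26 also did not pass over all 38 cells with the continuous total (adjusted p = 0.104). With the cell number as a covariate RTN4R, VMA21 and RPS26 passed, and FAM192A, TENM1, CNOT7, LDHA and VEGFA did not. Among cells numbered 1 to 19 RTN4R and TENM1 passed, and FAM192A (adjusted p = 0.375), RPS26, LDHA, VMA21, CNOT7 and VEGFA did not. Of the cells that the TENM1 call rested on, only large cell 11 is numbered 1 to 19. In limma on log2 CPM TENM1 did not pass (adjusted p = 0.466). TENM1, CNOT7 and FAM192A overlap STAG2, VPS37A and AC009090.6 on the other strand, and it is not known whether the counting used strand. The remaining calls, all lower in large cells, were the 6 copies of 7SK, 5 identifiers without a symbol, YWHAZ and PTMA, whose reads can be shared with many pseudogenes, and 1 further noncoding gene, whose call was kept in each of the 24 fits that left out a cell. With the cell number as a covariate 12 of all 30 calls stayed, and not all of the remaining calls were among them.

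Genes of the cell cycle had medians away from 0 and no calls between the sets. Of 53 tested G2/M genes, which serve mitosis, 41 had positive and 12 negative fold changes, with a median of 0.29, and 6 had an unadjusted p below 0.05 upwards, as against 4.37% of all genes. MKI67, which codes for the Ki-67 coat protein of mitotic chromosomes, stood at 623 to 1890 CPM in large cells (median 1168) and at 93.5 to 1133 CPM in small cells (median 754), and the log2 fold change was 0.62 (SE 0.201, adjusted p = 0.301). Over all 38 cells with the continuous total MKI67 passed, with a slope of 1.04 (adjusted p = 0.0455). TACC3, a spindle protein, averaged 125 ± 58.8 CPM in large cells and 67.1 ± 38.9 CPM in small cells (0.81, adjusted p = 0.236). The median of the G2/M genes was 0.12 with cells ranked by intronic barcodes, 0.08 with cells ranked by exonic reads, and its slope was 0.45 over cells and -0.05 over aliquots. Of 40 tested G1/S genes, 32 had negative fold changes with a median of -0.19 and 0 calls, and the smallest p among them were those of POLA1, the catalytic subunit of DNA polymerase alpha (-0.51, adjusted p = 0.377), and CDCA7 (-0.40, adjusted p = 0.446).

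All 23 replication-dependent histone genes that passed the filter, of 55 in the list, had negative fold changes. These genes make histones in S phase from mRNAs that end in a stem-loop and not in a poly(A) tail. Their median was -0.54, 8 had an unadjusted p below 0.05 and 0 passed the adjusted threshold. HIST1H2AG averaged 297 ± 198 CPM in large cells, 509 ± 311 CPM in small cells and 755 ± 115 CPM in aliquots (log2 fold change of large over small cells -0.84, adjusted p = 0.341), and HIST1H2BD had a fold change of -0.77 (adjusted p = 0.378). With cells ranked by intronic barcodes the median of the 23 was -0.08. In mean barcodes per cell the group had 1732 ± 1045 in large cells and 1455 ± 827 in small cells.

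Most of the other lists, among them those of growth and housekeeping, had medians nearer to 0. Cyclins and CDK inhibitors (0.26) and named long noncoding RNAs (-0.26) did not. Of 73 cytosolic ribosomal protein genes, RPS26 was the only call, and the median was -0.12, with 56 negative values and 15 lower at unadjusted p below 0.05; RPS24 had a fold change of -0.50 (adjusted p = 0.316). The median of ribosomal protein genes was 0.07 with cells ranked by exonic reads. Plain library totals in place of TMM factors raised the median of all genes by 0.06, so the sign of medians within that distance of 0 depends on the scaling. The medians were 0.00 for 29 translation factors, -0.01 for 30 genes of nucleolar ribosome biogenesis, 0.02 for 38 genes of RNA polymerase II and Mediator, 0.03 for 32 splicing factors, 0.11 for 27 proteasome subunits, 0.11 for 23 genes of the cytoskeleton and -0.06 for 18 genes of cholesterol synthesis, with 0 calls in any of these lists. Among 26 heat shock and unfolded protein genes (median -0.11, 0 calls), HSPA8, the constitutive HSP70, had a fold change of 0.41 (adjusted p = 0.191) and ATF4, the factor of the integrated stress response, one of -0.52 (adjusted p = 0.201). Of 14 cyclins and CDK inhibitors (median 0.26, 0 calls), CDK4 had 0.55 (adjusted p = 0.378) and CDK6 -0.62 (adjusted p = 0.373). Of 13 named long noncoding RNAs, 12 had negative values (median -0.26, 0 calls), led by NORAD (-0.54, adjusted p = 0.329). Of 9 immediate-early genes, ATF3 had 1.94 (adjusted p = 0.325, and 0.0383 over all 38 cells with the continuous total) and EGR1 -1.71 (adjusted p = 0.378), with 0 calls and a median of 0.08, and among 16 glycolytic genes LDHA was the only call.

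**Figure D5:**
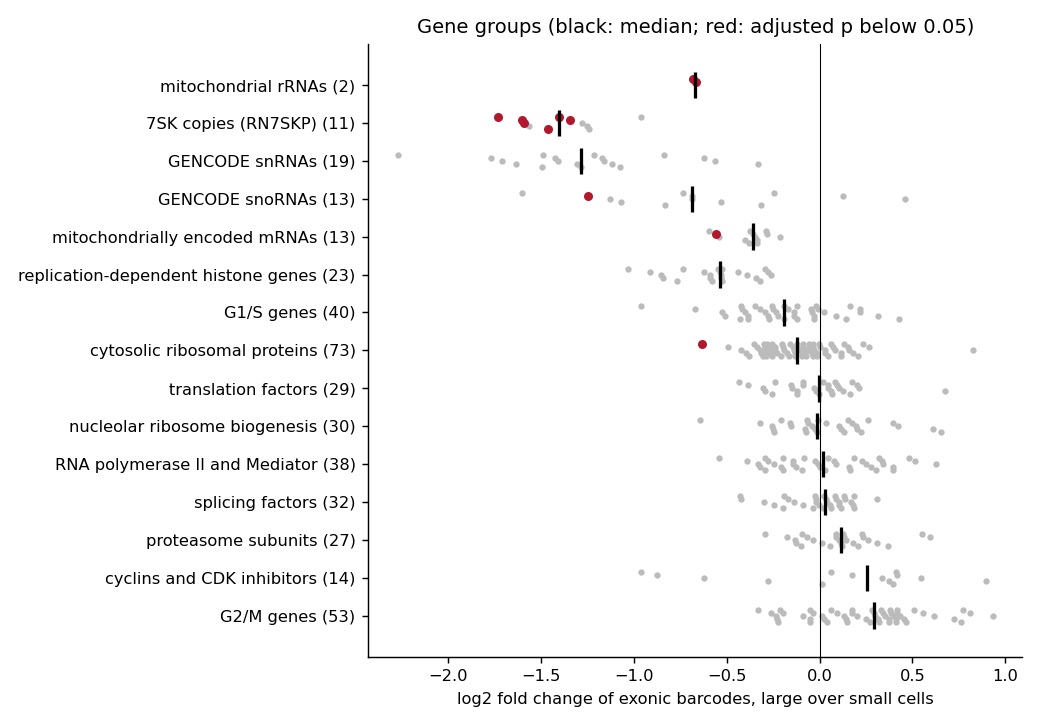
Log2 fold change of exonic barcodes, large over small cells, for each tested member of 15 gene groups (number of tested members in brackets); the black bar is the group's median and red points passed the adjusted threshold. The groups of short noncoding RNAs, mitochondrial transcripts and histone genes lie to the left, most housekeeping groups around 0, and the G2/M genes slightly to the right.

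Apart from FAM192A and TENM1, the genes with the smallest p among those higher in large cells did not pass. EDC3, an enhancer of mRNA decapping, averaged 101 ± 31.9 CPM in large cells and 51.3 ± 19.8 CPM in small cells (log2 fold change 0.89, adjusted p = 0.0905). UBL7, a ubiquitin-like protein, averaged 138 ± 39.9 CPM in large cells and 73.2 ± 35.2 CPM in small cells (0.85, adjusted p = 0.0905). SENP5, a SUMO protease, averaged 230 ± 193 CPM in large cells and 101 ± 53.6 CPM in small cells (1.11, adjusted p = 0.0925), and TSC2, the tuberin gene, had a fold change of 0.62 (adjusted p = 0.171). Over all 38 cells with the continuous total SENP5 (slope 1.74, adjusted p = 0.0415) and TSC2 (slope 0.84, adjusted p = 0.0369) passed.

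Introns were tested the same way on intronic barcodes, which did not enter the ranking. Of 12516 genes, 7 were higher in large cells (0.0559%) and 34 were lower (0.272%). The introns named here were chosen after their values were seen. Intronic barcodes of DLG2, a synaptic scaffold gene with very long introns, stood at 929 to 1834 intronic CPM in large cells (median 1254) and at 1634 to 6465 in small cells (median 2294), with 1802 to 2645 in aliquots; the log2 fold change was -1.17 (SE 0.219, adjusted p = 0.0183). AC024563.1, an antisense transcript that overlaps ZNF492 on the other strand, stood at 171 to 456 intronic CPM in large cells (median 250) and at 240 to 1655 in small cells (median 701), with a log2 fold change of -1.58 (SE 0.251, adjusted p = 0.00258). SEC14L1 (-1.04, adjusted p = 0.0245), PID1 (-1.25, adjusted p = 0.0281) and PDE3A, a cyclic nucleotide phosphodiesterase (-1.09, adjusted p = 0.0281), were also lower, and LINC00954 was higher at 18.6 ± 11.2 intronic CPM in large cells against 1.87 ± 2.45 in small cells (2.91, adjusted p = 0.0245). The introns of DLG2 varied less in large cells than in small cells: the coefficient of variation of DLG2 was 21.8% in large cells, 57.1% in small cells and 10.4% in aliquots, a difference that was not tested. The number of intronic calls rested on single cells. It was 4 without large cell 14, 5 without large cell 30, 10 without large cell 13, 12 without small cell 18, 17 without small cell 15, 19 without large cell 35, 23 without small cell 22, 25 without large cell 7, 26 without large cell 33 and 63 without small cell 17, and 31 to 48 without any other cell. DLG2 and AC024563.1 passed in each of these 24 fits.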

How the data were processed

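The 38 cells and 10 aliquots were taken from the deposited tables, 1 per library, each with 4 columns of counts per gene. The authors counted exonic and intronic reads and barcodes per gene, as deposited; TopHat, HTSeq and build hg19 are named in the submitters' processing notes, with no versions, and the strand setting of the counting is not stated there. The exonic barcode total of a library is its depth and chose the cells. The members and gene lists were chosen with earlier results of these data known.

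Of 57820 identifiers 52338 had a symbol in GENCODE release 29 or in a separate list of gene names, and those without held 1.59% of exonic barcodes. No pair of libraries agreed within sampling noise (chi-square per degree of freedom of at least 2.16 over 703 pairs of cells and 2.09 over 45 pairs of aliquots). Counts were tested with edgeR 4.0.16 (quasi-likelihood, TMM factors, mean of at least 10 CPM, Benjamini-Hochberg adjusted p below 0.05) in R 4.3.3, on the counts and after thinning each library to 128322 exonic barcodes. DESeq2 1.42.0 and limma 3.58.1 (log2 CPM, prior count 1) were alternatives. Slopes came from separate edgeR fits on the log2 total, 1 over the 38 cells and 1 over the 10 aliquots. The difference between them came from a joint edgeR fit of cells and aliquots with an interaction of the log2 total and the kind of library. Per-cell measures were tested by permutation with scipy 1.17.1 under Python 3.11.15.

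Genes were named by rule, leaving out pseudogenes and small RNAs of many copies: the 10 highest and 10 lowest fold changes past the threshold with at least 20 CPM, the 6 smallest p in each direction, the 2 smallest p of each gene list and the 3 smallest of the slope difference; copies of 7SK, RNU4-1, YWHAZ, PTMA, the introns and the genes in marker lists are named outside it. On simulated counts the exonic test over 9979 genes recovered 18%, 38%, 76% and 96% of genes changed 1.5, 2, 3 and 4 times, and 5.8% of its 121 calls were false.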

Additional observations from a re-analysis of the deposited data

Results flagged for a closer look

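Among 41 sets of 10 aliquots, taken from genes described and from per-library measures such as the totals, 3 held a library far from the others. Chance flags about 1 in 20 such sets. MT-ND4L stood at 411 CPM in aliquot 2, where the next lowest aliquot had 642. MT-ND5 stood at 1409.8 CPM in the same aliquot, where the next lowest had 1856. Aliquot 2 also had the highest exonic total of the 10, 275215 barcodes. RTN4R stood at 831 CPM in aliquot 10, where the next highest had 307, as it also stood out in single small cells.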

How the results depend on the processing

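The exonic calls numbered 30, and 19 with plain library totals (2 higher and 17 lower, and 671 higher against 324 lower at unadjusted p below 0.05, beside 436 and 482), 15 with limma (14 of them among the 30), 6 on exonic reads, 17 with 10 against 10 cells, 13 with 8 against 8 and 12 with the cell number as a covariate; the fit without a filter gave 145 and the continuous total over 38 cells 64. Ranked by intronic barcodes, all barcodes and exonic reads, the calls numbered 1, 8 and 2. Cells numbered 1 to 19 and 20 to 38, split after seeing the data, gave 14 and 3. The 30 genes kept their direction in these fits except under the intronic ranking (22 of 30) and in cells numbered 20 to 38 (29 of 30). Leaving out 1 cell gave 13 to 44 calls. Thinned counts gave 23 calls, 63 without a filter and 13 with the cell number. Intronic counts gave 41 calls, 85 with DESeq2, 76 with the cell number, and 4 to 63 without 1 cell, a set of fits added after seeing the data. Slopes differed for 0 genes in the main fit and with a replicate block over the 10 numbers that cells and aliquots share. Over all genes tested, same-numbered pairs correlated between -0.042 and 0.04. Whether same-numbered samples share more than a number was not tested further.

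The difference in intronic barcodes was 69038 with 10 against 10 cells and 83868 ranked by exonic reads, neither past the threshold. Signs turned, ranked by exonic reads, for intronic reads per barcode (0.158) and genes detected after thinning (-62.2 exonic and -190.3 intronic), and with 10 against 10 cells for the exonic number (-25.7). Ranked by intronic barcodes, log2 fold changes turned for RNY1 (0.20), AL355075.4 (0.14), RMRP (0.41), SNORA71A (0.82), MT-ND5 (0.055), VEGFA (0.54), EDC3 (-0.00217), TSC2 (-0.090), TACC3 (-0.0195), POLA1 (0.00173), HIST1H2AG (0.13), HIST1H2BD (0.046), EGR1 (0.77), HSPA8 (-0.011), ATF4 (0.081) and CDK4 (-0.084); ranked by exonic reads, for RPS24 (0.042) and TACC3 (-0.012); and in cells numbered 20 to 38, for POLA1 (0.061), CDCA7 (0.12), HSPA8 (-0.016) and CDK4 (-0.00378). The causes were not tested. Of 1574 values of single genes under an alternative, 1295 kept direction and side of the threshold, 222 no longer passed, 35 newly passed and these 22 turned.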
